A study of Homo sapiens with 6 samples.

Results

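The IGF2-H19 pair and 8 other imprinted genes were followed in total RNA from SEM cells carrying either of 2 forms of CTCF. The 10 genes are IGF2, H19, KCNQ1OT1, CDKN1C, PEG10, SNRPN, GNAS, MEG3, PLAGL1 and NAP1L5, each taken as the row of that symbol in the gene table, so they are 10 of 57820 genes. SEM is an established human B cell acute lymphoblastic leukemia (B-ALL) line, and all libraries shared an endogenous CTCF fused to miniAID and mClover3, which is degraded when the auxin analog 5-Ph-IAA is added in the presence of the plant receptor protein OsTIR1(F74G). Per the study's methods, doxycycline then induced HA-tagged CTCF, either the wild type (CTCF-WT, 3 libraries) or a form lacking the RNA-binding region (CTCF-dRBR, 3 libraries). The labels give the genotype CTCF-miniAID-mClover3 for the CTCF-WT libraries, with no transgene named, and add TRE3G-HA-CTCF-dRBR for the others. The replicates are libraries of 1 line per group, and no label says that they came from separate cultures, so p-values measure the spread between these libraries. No library with the endogenous protein left in place was analysed here.

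Imprinted genes are transcribed mainly from the allele of one parent, which is set by DNA methylation laid down in the germline. CTCF is a zinc-finger protein that binds DNA and blocks contact between enhancers and promoters, and the IGF2-H19 locus is the textbook case. There, CTCF binds the unmethylated maternal control region upstream of H19, H19 uses the shared enhancers, and IGF2, an insulin-like growth factor, stays silent on that chromosome. On the paternal chromosome the control region is methylated, CTCF does not bind, and IGF2 is transcribed where the tissue expresses it. The counts carry no allele information, so they give total transcript levels and not imprinting itself.

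The control region can be read directly from the genome, and its repeated CTCF core is printed here because it is the element through which CTCF is known to act on this pair. Between the start of the H19 gene and the end of the IGF2 gene (GRCh37, chr11:2016396-2179621), a 14-base CTCF core, in which positions 5, 6 and 9 may hold any base and the others must read as printed, was searched on both strands and matched 5 times, all on the minus strand. Each line shows a match with 8 bases on either side, 5′ to 3′ on the minus strand, with the core in capitals.
Site 1, chr11:2021190-2021219: ggaagtggCCGCGCGGCGGCAGtgcaggct
Site 2, chr11:2022002-2022031: ggaagtggCCGCGTGGCGGCAGtgcaggct
Site 3, chr11:2023435-2023464: aaaagtggCCGCGCGGCGGCAGtgcaggct
Site 4, chr11:2023836-2023865: ggaagtggCCGCGCGGCGGCAGtgcaggct
Site 5, chr11:2024241-2024270: agaagtggCCGCGCGGCGGCAGtgcaggct
Sites 1, 3, 4 and 5 share one core and site 2 has another, which makes 2 distinct cores. The cores hold 3 or 4 CpG dinucleotides, the bases at which methylation can occur. In the GENCODE v44 annotation lifted to GRCh37 all 5 lie in introns of H19, on chromosome 11 and 2.13 to 5.18 kb upstream of the 5′ end used by 7 of its 31 transcripts. Sites 1 and 2 are spanned by 13 H19 transcripts and the other 3 sites by 1. The 5 matches span 3065 bp and are 126.1 to 129.1 kb from the near end of IGF2. Chromosome 11 holds 43 matches in all, and 39 of its 26218 windows of 5000 bp (0.149%) hold any. The only window with 3 or more matches is the one with these 5. The letters searched are those of the core repeated in this control region, and not a general CTCF motif. Their clustering here is therefore not an independent result. A match to these letters is a description of the sequence and not a measured binding site.

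The libraries held between 30034505 and 53166735 counts, and CTCF-dRBR replicate 1 was the shallowest and stood apart from the other 5. Its gene levels correlated with those of the other libraries at a Spearman's rho of 0.913 to 0.968 across genes, against 0.971 to 0.997 among the other 5. Taken relative to each gene's mean over all libraries, gene levels also followed GC content differently in each library. Spearman's rho of these deviations with GC content ran from -0.775 in that library to 0.704 in CTCF-WT replicate 1. Some results are therefore also given without that library or with the trend over GC content removed. The cells carried the B-lineage identity of their label, since all 8 B-lineage markers were detected at a summed 625 to 1120 CPM (counts per library, scaled to a common total), while the 4 T cell markers summed to at most 0.602 CPM and the 4 erythroid markers to at most 0.0334. Fibroblast markers summed to 0.547 to 1.27 CPM and myeloid markers to 7.76 to 13.2 CPM. CTCF itself was read at 210, 211 and 249 CPM in CTCF-WT and at 273, 264 and 252 CPM in CTCF-dRBR. Endogenous and HA-tagged CTCF transcripts fall on the same gene row, so this row does not check the swap of the proteins.

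Of the 10 imprinted genes, 6 reached 1 CPM in at least 1 library and were tested, and 4 (IGF2, H19, CDKN1C and MEG3) did not. With limma-voom, 0 of the 6 passed a false discovery rate (FDR) of 0.05, and 0 of all 14044 tested genes did (0.0%). At an unadjusted p under 0.05, 0 of the 6 passed, beside 3569 of all tested genes (25.4%). edgeR's quasi-likelihood test and DESeq2 also called 0 of the 6, although DESeq2 called 1619 genes in all (11.5%). Fits on log2(TPM + 1) and log2(TPM + 0.1) called 0 of the 6, beside 5.93% and 5.41% of all genes. A fit that weights each library by its quality called 5 of the 6 and 9583 of all genes (68.2%), with weights from 0.0969 for CTCF-dRBR replicate 1 to 6.19 for CTCF-dRBR replicate 2. The log2 fold changes of the 6 genes, CTCF-dRBR relative to CTCF-WT, ran from -0.52 to 0.32 with a median of 0.058, beside a median of -0.0076 over all tested genes. Of the 6, 3 were above 0 and 3 below. With the GC trend removed, KCNQ1OT1 was at -0.17, PEG10 at -0.2, SNRPN at 0.22, NAP1L5 at 0.14 and PLAGL1 at -0.6 on the log2 scale, and none of them passed (adjusted p from 0.102 to 0.685). In bulk RNA, fewer cells expressing a gene and less of its RNA per cell cannot be told apart.

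**Figure D1:**
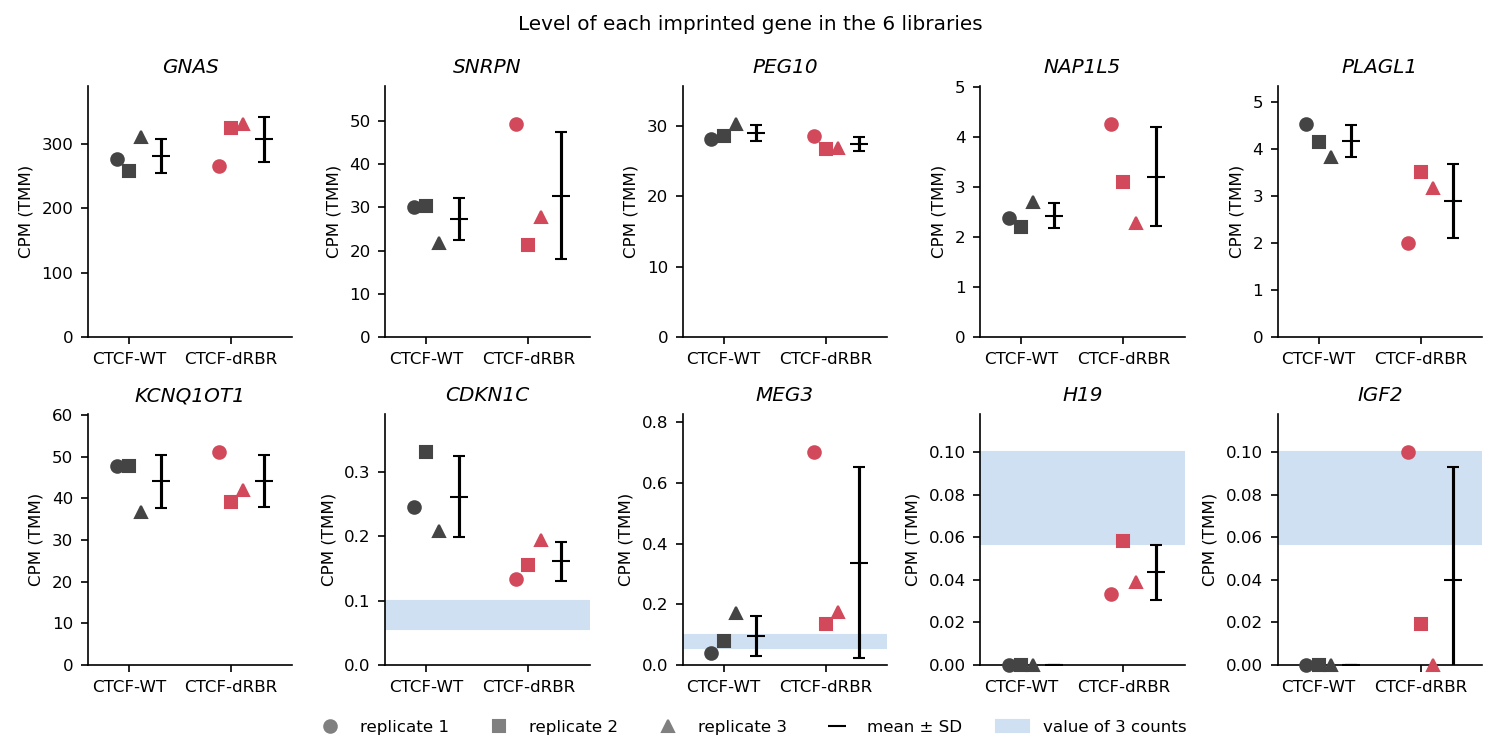
Level of each of the 10 imprinted genes in CPM after trimmed-mean (TMM) scaling, by library. Points are the 3 replicates of CTCF-WT (gray) and CTCF-dRBR (red), black bars are the mean ± SD, each panel starts at 0, and the blue band is the value of 3 counts; the 2 groups overlap in every tested gene but PLAGL1, and IGF2 and H19 sit at or under the band.

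The levels, compared between genes per transcript length as deposited TPM (transcript abundance per length, scaled to a fixed total), covered a wide range. GNAS was highest at 157 ± 50.6 TPM (SD, n = 6 libraries of both groups), followed by SNRPN at 19.5 ± 14.3 and PEG10 at 4.5 ± 2.19. The ranges of these 3 genes did not overlap with each other or with the next gene. NAP1L5 (0.972 ± 0.5 TPM) and PLAGL1 (0.92 ± 0.218 TPM) did not differ beyond their spread over all 6 libraries. PLAGL1 was the higher of the pair in all 3 CTCF-WT libraries and in CTCF-dRBR replicate 3, and NAP1L5 in the other 2 CTCF-dRBR libraries. KCNQ1OT1 (0.343 ± 0.0995 TPM) was below PLAGL1 in all 6 libraries. CDKN1C (0.127 ± 0.0294), MEG3 (0.0333 ± 0.0437), H19 (0.0117 ± 0.0133) and IGF2 (0.00333 ± 0.00816) followed, and each overlapped the next in that order. The share of TPM on protein-coding genes differed between libraries, from 30.2% to 63.2%, so TPM is used here for the order of genes and CPM for the comparison of groups.

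IGF2 and H19, the pair on which the CTCF model of imprinting rests, were close to undetected in both groups. IGF2 (chr11:2150342-2179621, minus strand) had 0 counts in each CTCF-WT library and 3, 1 and 0 counts in CTCF-dRBR replicates 1, 2 and 3. H19 (chr11:2016396-2025782, minus strand), a noncoding RNA, had 0 counts in each CTCF-WT library and 1, 3 and 2 counts in CTCF-dRBR. A count of 0 allows up to 3 counts, which is 0.0566 to 0.0611 CPM in the CTCF-WT libraries and up to 0.1 CPM in CTCF-dRBR replicate 1, so both genes were at or under that limit in all 6 libraries and no fold is given. The groups did not overlap for H19 on counts of at most 3 (exact permutation test of CPM, two-sided, p = 0.1, the smallest that 3 against 3 allows), and they overlapped for IGF2 (p = 0.4). Of all tested genes, 20.0% did not overlap with CTCF-dRBR higher. In a limma-voom fit without the filter the adjusted p was 0.182 for H19 and 0.353 for IGF2. At this depth a shift from H19 to IGF2 was not detectable in either direction, and their ratio was not computed. The antisense gene IGF2-AS and INS, the insulin gene just beyond IGF2, had 0 counts in all 6 libraries. The counting limits cover counting error only.

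The second imprinted domain of 11p15.5 was transcribed, through KCNQ1OT1. KCNQ1OT1 (chr11:2618538-2721233, minus strand) is a long antisense RNA of the paternal allele that silences its neighbors in cis. Its level was 47.8, 47.7 and 36.6 CPM in CTCF-WT and 51.1, 39.1 and 42.1 CPM in CTCF-dRBR. The groups overlapped, with SDs of 6.45 and 6.24 CPM (n = 3 each) and a log2 fold change of -0.012 ± 0.16 (SE; 95% interval -0.4 to 0.37; limma-voom adjusted p = 0.963, and 0.0137 to 0.998 over the alternatives). KCNQ1, which overlaps it on the opposite strand, had 0 counts in all libraries. CDKN1C (chr11:2904443-2907005, minus strand), the maternally expressed cell cycle inhibitor p57 that KCNQ1OT1 is known to repress, had 12, 17 and 11 counts in CTCF-WT and 4, 8 and 10 in CTCF-dRBR. That is 0.245, 0.331 and 0.208 CPM against 0.134, 0.155 and 0.194 CPM, all 3 CTCF-dRBR libraries below all CTCF-WT libraries (exact permutation p = 0.1, the smallest possible). Of all tested genes, 17.5% did not overlap in that direction. In TPM the CDKN1C groups overlapped (exact permutation p = 0.6). With TPM rescaled over protein-coding genes, CDKN1C averaged 0.222 in CTCF-dRBR against 0.353 in CTCF-WT (exact permutation p = 0.1, the smallest possible). CDKN1C was too low for the main test, and its adjusted p was 0.47 with limma-voom without the filter and 0.253 with the looser filterByExpr minimum. PHLDA2, a maternally expressed growth regulator of the domain, had 1 count in 1 library. SLC22A18, also maternally expressed, was tested, at 5.58, 5.59 and 4.0 CPM in CTCF-WT and 0.702, 3.55 and 4.72 CPM in CTCF-dRBR. The groups overlapped, and CTCF-dRBR replicate 1 was lowest. Its log2 fold change of -0.98 ± 0.621 (SE; limma-voom adjusted p = 0.307) was the largest in size of the 23 tested imprinted genes. Only the fit with library weights called it.

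**Figure D2:**
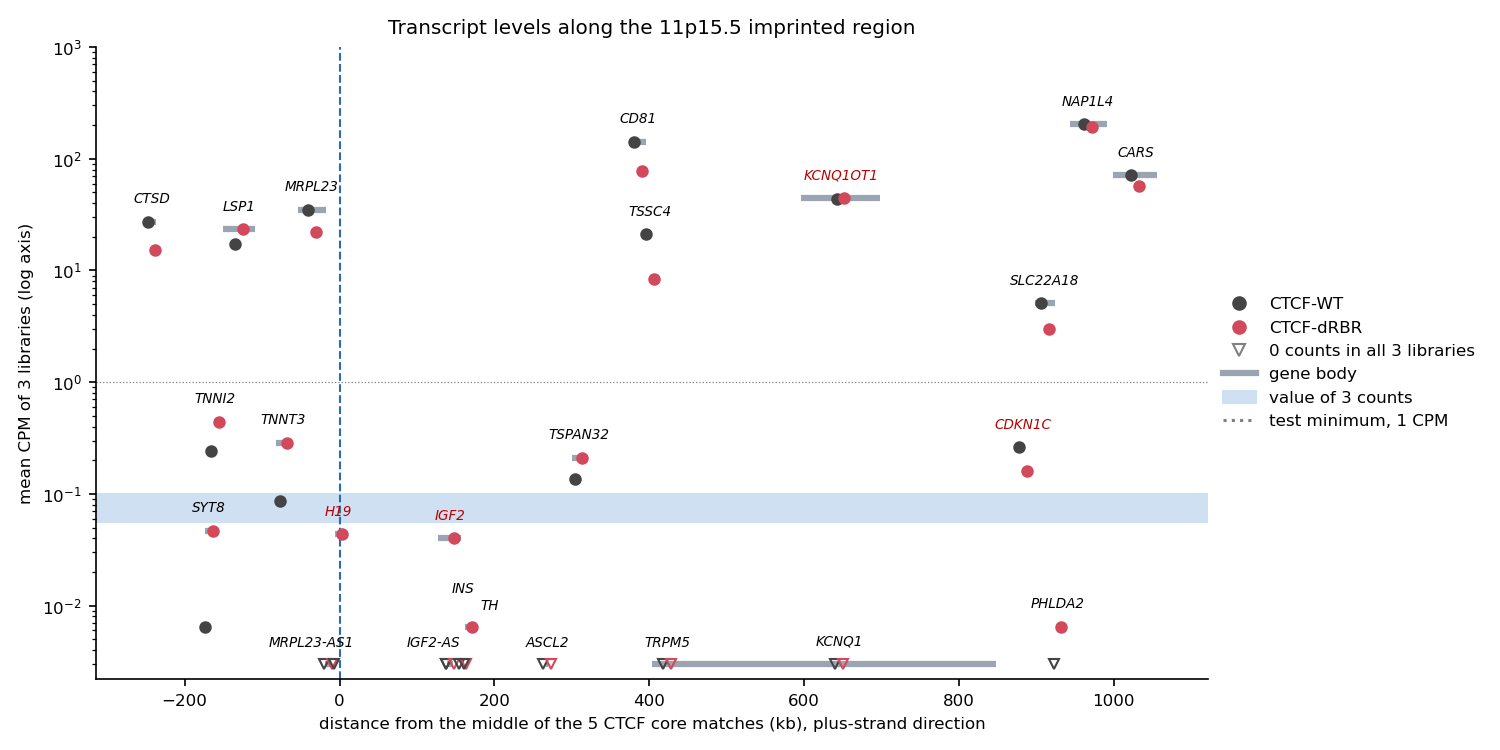
Mean CPM of 3 libraries (log axis) for genes of 11p15.5 against their distance in kb from the middle of the 5 CTCF core matches (dashed line), with gene bodies as gray bars and the 4 genes described in red letters. H19 and IGF2 lie in or under the band of 3 counts, and open triangles mark 0 counts in all 3 libraries of a group. The KCNQ1OT1 points of both groups coincide.

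Some genes around the control region were expressed, and CTSD, LSP1 and MRPL23 on the H19 side were tested. On the IGF2 side no listed gene reached 1 CPM before CD81, which starts 374.7 kb from the middle of the matches. Of 15 neighboring genes, from CTSD to CARS, 7 were tested and 0 passed the FDR, with 1 log2 fold change above 0, 6 below 0 and a median of -0.7. Over all tested genes 50.6% were below 0, with a median of -0.0076. Closest to the control region among those tested, MRPL23, a mitochondrial ribosomal protein whose gene ends 17.0 kb from the middle of the matches, was at 35.7, 37.5 and 31.8 CPM in CTCF-WT and at 14.1, 21.6 and 29.9 CPM in CTCF-dRBR. The groups did not overlap, as for 17.5% of all tested genes in that direction, and the log2 fold change was -0.7 ± 0.252 (SE; limma-voom adjusted p = 0.174). With the GC trend removed it was -0.026 (adjusted p = 0.909). LSP1 (chr11:1872134-1913497), an actin-binding protein of leukocytes, was at 17.2 ± 2.44 CPM in CTCF-WT, against 23.3 ± 8.63 CPM in CTCF-dRBR (SD, n = 3), a log2 fold change of 0.42 ± 0.29 (adjusted p = 0.335). LSP1 was the 1 neighbor that passed with the GC trend removed, at a log2 fold change of 1.17 (adjusted p = 0.0202; that fit called 8.88% of all genes). TSSC4, with a log2 fold change of -1.63 ± 0.695 (adjusted p = 0.202), CD81, a tetraspanin of the B cell co-receptor, at -1.05 ± 0.552 (adjusted p = 0.247), and NAP1L4, a histone chaperone, at -0.067 ± 0.0984 (adjusted p = 0.636) did not pass either. CTSD was at -1.12 ± 0.61 (adjusted p = 0.256). TSSC4, CD81 and CTSD were lowest in CTCF-dRBR replicate 1, at 1.81, 23.7 and 3.81 CPM. Without that library and with the GC trend removed, the log2 fold change was -0.45 for TSSC4 (adjusted p = 0.0497) and -0.043 for CD81 (adjusted p = 0.732), in a fit that called 23.5% of all genes.

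At 15q11-q13, the locus of Prader-Willi and Angelman syndromes, the paternal transcript of SNURF and SNRPN was well expressed. SNRPN (chr15:25068784-25223870, plus strand) encodes SmN, a core protein of spliceosomal ribonucleoproteins. It was at 30.0, 30.3 and 21.8 CPM in CTCF-WT and 49.2, 21.3 and 27.7 CPM in CTCF-dRBR, so 1 library, CTCF-dRBR replicate 1, was above all others and the rest overlapped. The log2 fold change was 0.13 ± 0.312 (SE; 95% interval -0.62 to 0.88; limma-voom adjusted p = 0.777), and it was -0.16 without CTCF-dRBR replicate 1 (adjusted p = 0.568) and -0.43 with library weights (adjusted p = 0.00893). SNRPN shares its transcript with SNURF (chr15:25200134-25222997), an upstream open reading frame, and the counting split reads between their rows, so each is uncertain alone. This SNURF row took most of the reads, at 146 ± 2.62 CPM in CTCF-WT, against 159 ± 10.2 CPM in CTCF-dRBR, with a log2 fold change of 0.12 ± 0.0887 (adjusted p = 0.374). A second SNURF row was too low to be tested, with at most 9.4 counts in any library, and is included in the sum below.

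Relative to its mean, the sum of the SNURF and SNRPN rows spread less than SNRPN alone. The sum was 173, 179 and 169 CPM in CTCF-WT and 218, 169 and 189 CPM in CTCF-dRBR, and the groups overlapped. The means were 174 ± 4.81 and 192 ± 24.2 CPM (SD, n = 3 each; exact permutation p = 0.3), and a fit on summed counts, chosen after the data were seen, gave a log2 fold change of 0.13 ± 0.113 (SE; limma-voom adjusted p = 0.425). The SNRPN row held 12.9% to 17.3% of the sum in CTCF-WT and 12.6%, 14.7% and 22.6% in CTCF-dRBR, the last in replicate 1. In TPM the SNRPN row did not overlap between groups, at 10.2, 13.1 and 13.6 in CTCF-WT and 48.4, 15.7 and 16.2 in CTCF-dRBR (exact permutation p = 0.1, the smallest possible), as for 13.1% of all tested genes in that direction. With TPM rescaled over protein-coding genes, the SNRPN groups overlapped (exact permutation p = 0.4). SNHG14, the long host transcript that runs on from SNRPN toward UBE3A and holds clusters of small nucleolar RNAs, was at 115 ± 3.44 and 134 ± 20.2 CPM (SD, n = 3 each), a log2 fold change of 0.2 ± 0.124 (adjusted p = 0.294).

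**Figure D3:**
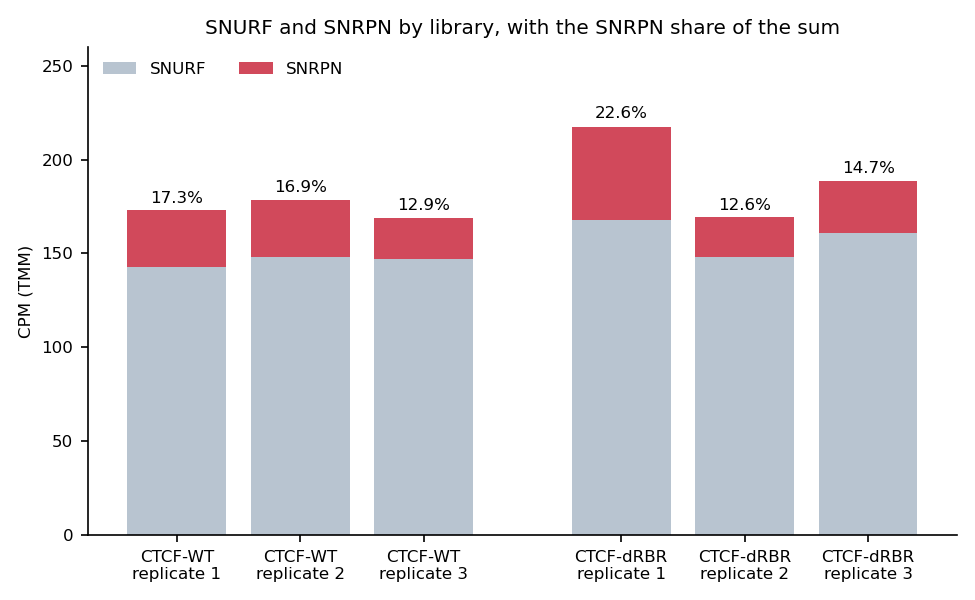
CPM of SNURF (gray) and SNRPN (red) stacked by library, with the SNRPN share of the sum printed above each bar. The sum is 169 to 179 CPM in CTCF-WT, against 169 to 218 CPM in CTCF-dRBR, and the SNRPN share is highest, 22.6%, in CTCF-dRBR replicate 1.

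GNAS was the most abundant of the 10 genes. GNAS (chr20:57414773-57486247, plus strand) encodes the stimulatory G protein alpha subunit that activates adenylyl cyclase, mostly from both alleles, and imprinted alternative transcripts from upstream promoters, all summed in 1 row. Its level was 276, 257 and 310 CPM in CTCF-WT and 266, 324 and 330 CPM in CTCF-dRBR, and the groups overlapped. The means were 281 ± 26.9 and 307 ± 35.3 CPM (SD, n = 3 each), and the log2 fold change was 0.13 ± 0.125 (SE; 95% interval -0.17 to 0.43; limma-voom adjusted p = 0.482). The sign turned with the GC trend removed, to -0.1 (adjusted p = 0.722), and the value was 0.22 without CTCF-dRBR replicate 1 (adjusted p = 0.195). GNAS-AS1, the antisense RNA of the paternal allele, had 1 to 4 counts in each library.

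PEG10 had the smallest SE of the 6 tested genes. PEG10 (chr7:94285637-94299007, plus strand) is a paternally expressed gene derived from a retrotransposon, needed for placental growth. It was at 28.1, 28.5 and 30.2 CPM in CTCF-WT and 28.6, 26.7 and 26.9 CPM in CTCF-dRBR, which overlapped, with means of 28.9 ± 1.13 and 27.4 ± 1.05 CPM (SD, n = 3 each). The log2 fold change was -0.083 ± 0.102 (SE; 95% interval -0.33 to 0.16; limma-voom adjusted p = 0.575), and on log2(TPM + 1) rescaled over protein-coding genes it was 0.33 (adjusted p = 0.304). SGCE, the paternally expressed sarcoglycan gene that starts beside PEG10 on the other strand, was at 5.3, 5.65 and 5.59 CPM in CTCF-WT and 7.66, 6.28 and 6.04 CPM in CTCF-dRBR. Its groups did not overlap, as for 20.0% of all tested genes in that direction, with a log2 fold change of 0.26 ± 0.152 (adjusted p = 0.286). With the GC trend removed it was -0.13 (adjusted p = 0.46).

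PLAGL1 was the only tested gene of the 10 whose groups did not overlap in CPM. PLAGL1 (chr6:144261437-144385736, minus strand) encodes the zinc-finger transcription factor ZAC1 of transient neonatal diabetes. It was at 4.52, 4.15 and 3.83 CPM in CTCF-WT and 2.01, 3.51 and 3.16 CPM in CTCF-dRBR, with every CTCF-dRBR library below every CTCF-WT library (exact permutation p = 0.1, the smallest possible). That is 1 of 6 genes in that direction, beside 17.5% of all tested genes. The means were 4.17 ± 0.347 and 2.89 ± 0.787 CPM (SD, n = 3 each), and the log2 fold change was -0.52 ± 0.231 (SE; 95% interval -1.08 to 0.036; limma-voom adjusted p = 0.21, and 0.0261 to 0.844 over the alternatives). It was below 0 under all 19 alternatives, from -0.81 to -0.27, and at -0.32 without CTCF-dRBR replicate 1 (adjusted p = 0.202). Some of these alternatives are relative to the all-gene median, as stated in the closing section. In TPM the groups overlapped (exact permutation p = 0.8), while in TPM rescaled over protein-coding genes PLAGL1 averaged 1.71 in CTCF-dRBR against 2.45 in CTCF-WT, with an exact permutation p of 0.1, the smallest possible.

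NAP1L5 (chr4:89617064-89618980, minus strand), a paternally expressed relative of nucleosome assembly proteins, lies within HERC3 on the opposite strand. It was at 2.38, 2.2 and 2.7 CPM in CTCF-WT and 4.25, 3.1 and 2.27 CPM in CTCF-dRBR, and replicate 3 of CTCF-dRBR lay among the CTCF-WT values. The log2 fold change was 0.32 ± 0.256 (SE; 95% interval -0.29 to 0.94; limma-voom adjusted p = 0.391) and 0.13 without CTCF-dRBR replicate 1 (adjusted p = 0.684). HERC3, a ubiquitin ligase, was at 17.1 ± 1.93 and 13.7 ± 2.7 CPM (SD, n = 3 each), a log2 fold change of -0.31 ± 0.185 (adjusted p = 0.288). With the GC trend removed HERC3 was at -0.5 (adjusted p = 0.189). The deposited tables are labeled as stranded, and counting by strand keeps reads of the 2 opposite genes apart.

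MEG3 (chr14:101245747-101327368, plus strand), a maternally expressed long noncoding RNA, was detected at a few counts. It had 2, 4 and 9 counts in CTCF-WT and 21, 7 and 9 in CTCF-dRBR, or 0.0408, 0.0779 and 0.17 CPM against 0.702, 0.136 and 0.175 CPM. A single library, CTCF-dRBR replicate 1, carried the difference in means of 0.241 CPM, which was 0.059 CPM without it (exact permutation p with all libraries = 0.2). DLK1, the paternally expressed Notch ligand of the locus, had 0 counts in all 6 libraries.

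**Figure D4:**
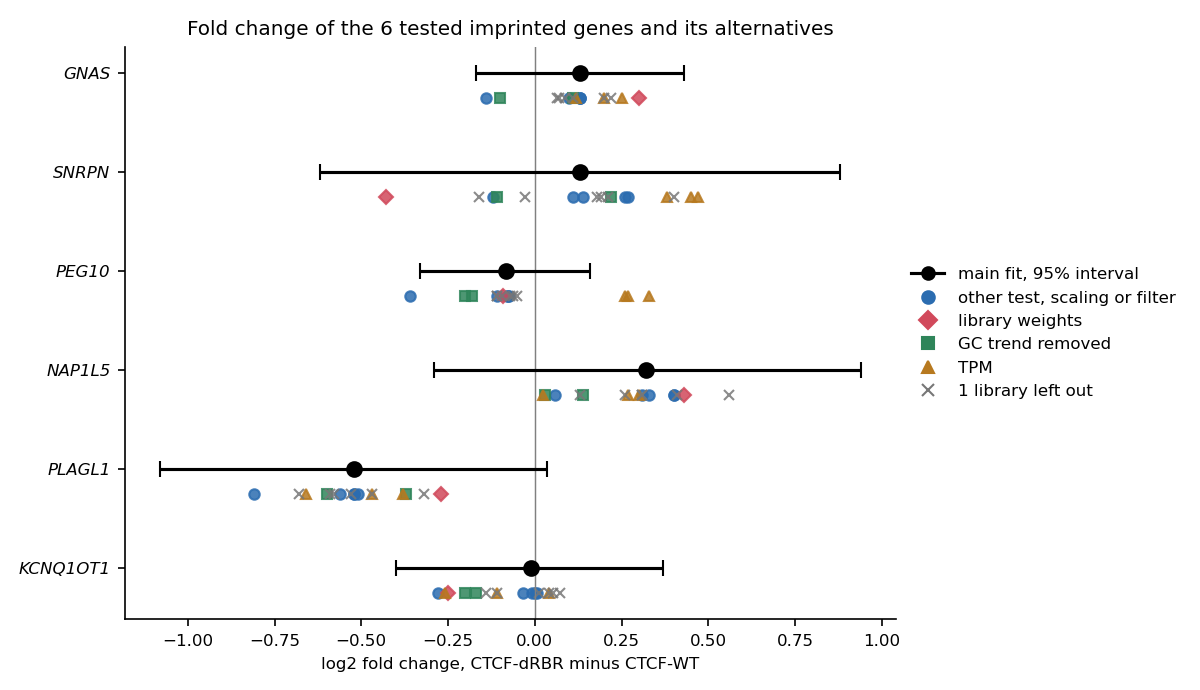
Log2 fold change (CTCF-dRBR minus CTCF-WT) of the 6 tested genes with 95% intervals (black), and the same under other tests, scalings and filters, with library weights, with the GC trend removed, on TPM and with 1 library left out (markers below each). Values whose all-gene median lay over 0.1 from that of the main fit are drawn relative to that median. All 6 intervals include 0, and PLAGL1 and NAP1L5 are the genes whose markers all keep one side of 0.

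Of 43 rows of other imprinted genes, 17 were tested and 0 passed the FDR. Among them 10 had a log2 fold change above 0 and 7 below, with a median of 0.18 beside -0.0076 over all tested genes. An unadjusted p under 0.05 was reached by 2, both higher, beside 12.6% of all tested genes in that direction. These were ZDBF2, a zinc-finger gene of the paternal allele, and INPP5F, an inositol phosphatase. ZDBF2 was at 45.3, 53.1 and 52.8 CPM in CTCF-WT and 90.1, 70.4 and 62.1 CPM in CTCF-dRBR, without overlap, as for 20.0% of all tested genes in that direction. Its log2 fold change was 0.53 ± 0.16 (SE; limma-voom adjusted p = 0.149). DESeq2 called it, at 0.56 (adjusted p = 0.0452), and it was 0.22 with the GC trend removed (adjusted p = 0.0869). INPP5F was at 29.0 ± 2.55 and 37.5 ± 4.17 CPM (SD, n = 3 each), a log2 fold change of 0.36 ± 0.133 (adjusted p = 0.179). RB1, the retinoblastoma tumor suppressor with a maternal bias, was at 317 ± 29.3 and 401 ± 69.2 CPM (0.33 ± 0.149 on the log2 scale, adjusted p = 0.214). On the lower side the smallest p-values were those of BLCAP (-0.52 ± 0.286, adjusted p = 0.259) and TRAPPC9 (-0.43 ± 0.239, adjusted p = 0.261). BLCAP was at -0.21 without CTCF-dRBR replicate 1 (adjusted p = 0.212). With the GC trend removed, INPP5F was at 0.21, RB1 at -0.012 and TRAPPC9 at -0.045 (adjusted p = 0.159, 0.91 and 0.767).

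Grouped by the parental allele they are known to use, the 5 tested paternally expressed genes of the 10 had a median log2 fold change of -0.012, and none of the 3 maternally expressed ones was tested. In the other imprinted genes the median was 0.16 over 6 paternally expressed genes and 0.27 over 7 maternally expressed ones. No test was run between alleles, since the medians rest on few genes. Of the 43 rows, 18 had at most 3 counts in every library, 7 of them 0 throughout, MAGEL2, DLK1 and KLF14 among these.

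**Figure D5:**
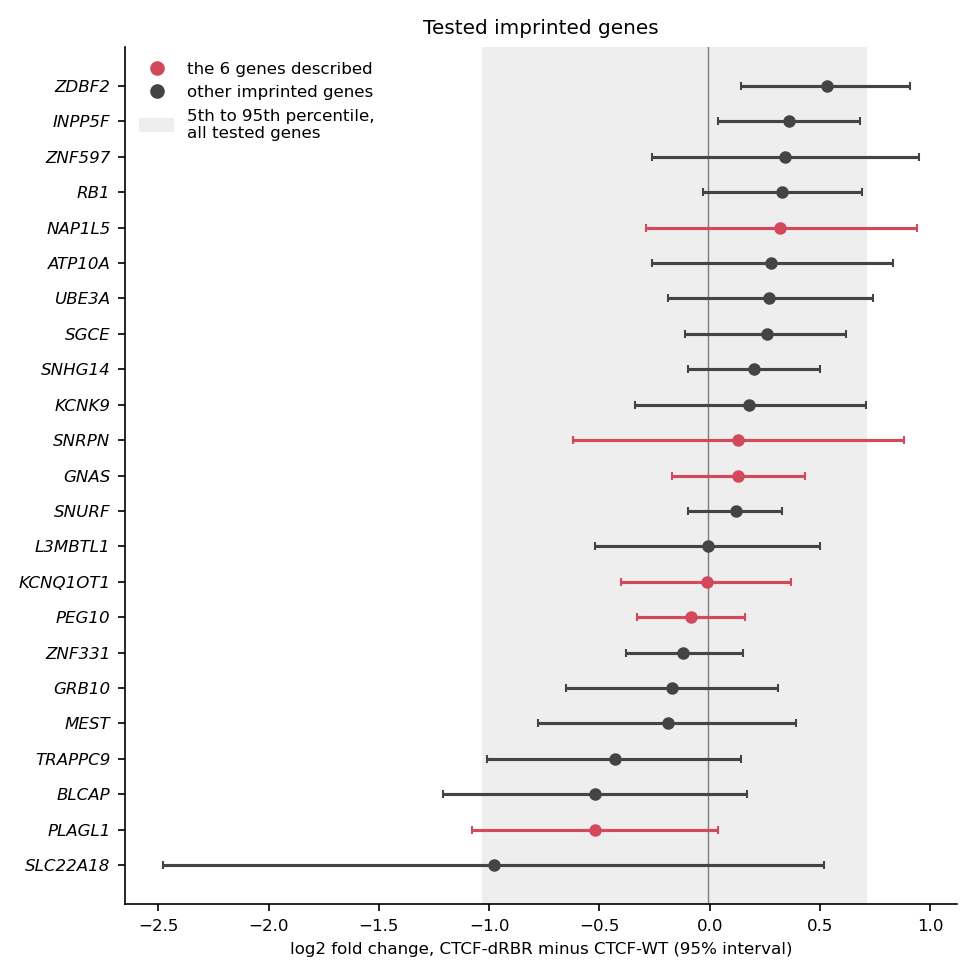
Log2 fold change with 95% interval (CTCF-dRBR minus CTCF-WT) of the 23 tested imprinted genes, the 6 described in red and the 17 others in gray, ordered by value. The gray band is the 5th to 95th percentile of all 14044 tested genes, -1.03 to 0.71, and all 23 point values lie inside it.

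The genes that act with IGF2 were expressed in part. IGF2 signals through the receptors IGF1R and INSR, is cleared by IGF2R and is held by IGF-binding proteins, and its mRNA is bound by the IGF2BP proteins. Of 14 such genes, 7 were tested and 0 passed the FDR (2 above 0, 5 below, median -0.1). The receptors IGF1R, INSR and IGF2R were all expressed, at 24.9 to 54.6, 104 to 151 and 72.0 to 102 CPM over the 6 libraries. The ligand IGF1 had 0 to 20 counts per library. IGFBP7, a secreted IGF-binding protein, was at 27.4, 30.2 and 33.2 CPM in CTCF-WT and 62.1, 47.2 and 43.7 CPM in CTCF-dRBR, without overlap, as for 20.0% of all tested genes in that direction. Its log2 fold change of 0.72 ± 0.163 (SE) had a limma-voom adjusted p of 0.116, and it was called without CTCF-dRBR replicate 1, at 0.58 (adjusted p = 0.0475, in a fit that called 3.9% of all genes), and by DESeq2, at 0.76 (adjusted p = 0.00472). IGFBP7 was not called by edgeR or with the GC trend removed, a fit that called 8.88% of all genes. Library weights, log2(TPM + 1), log2(TPM + 0.1) and removal of both that trend and CTCF-dRBR replicate 1 called it. IGFBP2 was at 77.8 ± 13.1 and 44.9 ± 29.9 CPM (SD, n = 3 each; -0.95 ± 0.496, adjusted p = 0.247), IGFBP4 at 6.56 ± 1.59 and 4.4 ± 0.896 CPM (-0.54 ± 0.254, adjusted p = 0.22), and IGF2BP3 at 114 ± 10.8 and 140 ± 22.3 CPM (0.29 ± 0.144, adjusted p = 0.231). With the GC trend removed the log2 fold changes were -0.48 for IGFBP2, 0.21 for IGFBP4 and 0.031 for IGF2BP3 (adjusted p = 0.263, 0.607 and 0.785). Without CTCF-dRBR replicate 1 IGFBP2 was at -0.43 (adjusted p = 0.265), and at -0.2 with both removed (adjusted p = 0.339).

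Of 10 factors that set or keep imprints, 7 were tested and 0 passed the FDR, with 2 values above 0, 5 below and a median of -0.1. CTCF had a log2 fold change of 0.24 ± 0.102 (SE; limma-voom adjusted p = 0.202), and its groups did not overlap, as for 20.0% of all tested genes in that direction. DNMT3A, the methyltransferase that lays down germline methylation, was at 67.1, 56.8 and 55.9 CPM in CTCF-WT and 40.7, 44.3 and 44.8 CPM in CTCF-dRBR, without overlap, as for 17.5% of all tested genes in that direction. Its log2 fold change was -0.46 ± 0.115 (adjusted p = 0.13). ZNF445, a zinc-finger protein that maintains imprints, was at 65.9 ± 7.93 and 49.2 ± 2.45 CPM (SD, n = 3 each; -0.42 ± 0.124, adjusted p = 0.148). These 2 were called by DESeq2 (adjusted p = 0.00816 and 0.0381), and DNMT3A was -0.19 with the GC trend removed (adjusted p = 0.356), against -0.45 for ZNF445 (adjusted p = 0.0594). With CTCF-dRBR replicate 1 also left out, both passed, DNMT3A at -0.3 (adjusted p = 0.0465) and ZNF445 at -0.47 (adjusted p = 0.039), in the fit that called 23.5% of all genes. TRIM28, the corepressor that ZNF445 recruits, was at 389, 391 and 361 CPM in CTCF-WT and 97.0, 252 and 330 CPM in CTCF-dRBR (-0.9 ± 0.424, adjusted p = 0.22), and its log2 fold change was -0.048 with the GC trend removed (adjusted p = 0.82). The maintenance methyltransferase DNMT1 (-0.1 ± 0.121, adjusted p = 0.582), its partner UHRF1 (-0.093 ± 0.22, adjusted p = 0.774) and the demethylase KDM1B (0.032 ± 0.191, adjusted p = 0.912) did not pass.

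RefSeq promoters (GRCh38.p14, windows around each start of transcription) were searched for the core because CTCF can also bind at promoters. The table held 20 promoters for 6 of the 10 genes, GNAS, H19, MEG3, NAP1L5, PLAGL1 and SNRPN. None of the 20 held the 14-base core on either strand, which 0.165% of 35116 promoters hold. With so rare a match, a count of 0 among 20 cannot tell whether these promoters hold other CTCF sites.

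The library pattern of the 2 best-expressed genes was compared with that of all tested genes, as the root mean square difference of centered log2 CPM over the 6 libraries. The genes closest to GNAS were SCMH1 (0.0255), RP11-706O15.3 (0.0425) and LAMC1 (0.0425), beside a median of 0.316 over 14043 genes. Closest to SNRPN were SNORD89 (0.0824), RP11-61L19.1 (0.102) and SNORD15B (0.109), beside a median of 0.471. SNORD89 and SNORD15B are small nucleolar RNAs, and the SNRPN pattern is led by the high value in CTCF-dRBR replicate 1.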

How the data were processed

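Total RNA after ribosomal RNA removal was sequenced from 3 CTCF-WT and 3 CTCF-dRBR libraries. The authors trimmed reads with Trim Galore (0.6.3), aligned them to GRCh37 with STAR (2.7.9a) and estimated expected counts and TPM per gene with RSEM (1.3.1), as deposited and per the submitters' processing notes. The deposited tables are labeled as stranded. Expected counts were scaled by TMM and tested with limma-voom (limma 3.58.1) over the 14044 genes with at least 1 CPM in any library, two-sided, with Benjamini-Hochberg adjustment over all of them. Checks on simulated data were run first. They do not show that the main test finds changes as small as those of the tested imprinted genes. edgeR (4.0.16) and DESeq2 (1.42.0), on rounded counts, and the settings of the closing section were alternatives. GC content came from the longest GENCODE transcript, for 13654 of the tested genes. Single values were compared by exact permutation tests (two-sided).

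The 10 genes and all lists were chosen with earlier results of these data known. Named beside the 10 were all tested host or overlapping genes and, in each other list, the 3 with the highest mean TPM and the 2 with the smallest p in each direction. PHLDA2, SLC22A18, CTSD, DLK1, MAGEL2, KLF14, INS and the IGF receptors were named after their values were seen, as were the rows in the closing section.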

Additional observations from a re-analysis of the deposited data

How the results depend on the processing

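The 6 tested genes among the 10 were called in no fit but the one with library weights, which called 5 of them (GNAS, KCNQ1OT1, NAP1L5, PLAGL1 and SNRPN, not PEG10). Of their 115 values under alternatives, 93 kept their direction and side of the threshold, 4 kept the direction and passed, 0 lost a call and 18 changed sign. Where values are given below relative to the all-gene median, the relative value was counted. PLAGL1 and NAP1L5 changed sign under none of 19. The IGF2 to H19 ratio and its alternatives were not run, since both genes were at or under 3 counts in all libraries. The cause of each change below was not tested.

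Over all genes, the count past the FDR was 0 in the main fit and 1619 with DESeq2, 9583 with library weights, 833 on log2(TPM + 1), 760 on log2(TPM + 0.1), 1213 with the GC trend removed and 3135 with CTCF-dRBR replicate 1 also left out; leaving out 1 library gave 0 to 535, and the 535 were found with CTCF-dRBR replicate 1 left out. The main fit counted 3569 genes and edgeR 3460 at an unadjusted p under 0.05. Other imprinted genes passed in number 1 (DESeq2), 9 (library weights), 1 (log2(TPM + 1)), 1 (log2(TPM + 0.1)) and 3 (GC trend removed without CTCF-dRBR replicate 1), from 0. Of the 11p15.5 neighbors, 6 passed with library weights, 1 on log2(TPM + 1), 1 on log2(TPM + 0.1), 1 with the GC trend removed and 2 with CTCF-dRBR replicate 1 also left out. The IGF axis had 4 with library weights and 1 each with DESeq2, on log2(TPM + 1), on log2(TPM + 0.1) and with the GC trend and CTCF-dRBR replicate 1 removed, and 0 to 1 with 1 library left out (1 without CTCF-dRBR replicate 1). Imprint control factors had 2 (DESeq2), 4 (library weights) and 2 (GC trend removed without CTCF-dRBR replicate 1). Tested genes of the 10 whose CPM groups do not overlap numbered 1, and 1 to 3 when 1 library was left out, with 3 without CTCF-dRBR replicate 1 and 2 without CTCF-dRBR replicate 3. With all libraries, 37.5% of all tested genes did not overlap in either direction. That share was not computed with a library left out, where smaller groups separate more easily. The rise is therefore not read as a result about these genes. The shared replicate numbers did not pair the libraries (correlations of same-numbered deviations -0.341, 0.0993 and -0.471), and the replicate block called 0 genes, with 1423 at an unadjusted p under 0.05, or 0 and 2948 with the GC trend removed.

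Log2 fold changes are given here relative to the all-gene median where that median lay over 0.1 from the main one (0.194 without a filter, 0.404 on log2(TPM + 1), 0.539 on log2(TPM + 0.1)). Without a filter the median was taken over 38604 genes, beside 14044 in the main fit. In these fits a change of sign is that of the relative value and need not hold before the subtraction. GNAS turned to -0.14 (no filter), -0.1 (the GC trend removed) and -0.1 (replicate block and GC trend removed). KCNQ1OT1 turned to 0.0016 (edgeR), 0.0072 (DESeq2), 0.04 (log2(TPM + 1) over protein-coding genes), 0.042 (CTCF-WT library 1 left out), 0.052 (CTCF-WT library 2 left out), 0.073 (CTCF-dRBR library 2 left out) and 0.011 (CTCF-dRBR library 3 left out), within -0.14 to 0.073 over the 6 fits that leave out 1 library. PEG10 turned to 0.26 (log2(TPM + 1)), 0.27 (log2(TPM + 0.1)) and 0.33 (log2(TPM + 1) over protein-coding genes). SNRPN turned to -0.43 (library weights), -0.12 (no filter), -0.11 (that trend and CTCF-dRBR replicate 1 removed), -0.028 (CTCF-WT library 3 left out) and -0.16 (CTCF-dRBR library 1 left out), within -0.16 to 0.4 over the 6 fits that leave out 1 library. CTCF turned to -0.04 (no filter). DNMT1 turned to 0.63 (log2(TPM + 1)), 0.51 (log2(TPM + 0.1)), 0.58 (log2(TPM + 1) over protein-coding genes), 0.28 (the GC trend removed), 0.16 (that trend and CTCF-dRBR replicate 1 removed) and 0.28 (replicate block and GC trend removed). IGFBP4 turned to 0.21 (the GC trend removed) and 0.23 (replicate block and GC trend removed). KDM1B turned to -0.013 (library weights), -0.23 (no filter), -0.039 (log2(TPM + 0.1)), -0.15 (the GC trend removed), -0.23 (that trend and CTCF-dRBR replicate 1 removed), -0.14 (replicate block and GC trend removed), -0.045 (CTCF-WT library 1 left out) and -0.14 (CTCF-dRBR library 1 left out), within -0.14 to 0.18 over the 6 fits that leave out 1 library. NAP1L4 turned to 0.6 (log2(TPM + 1)), 0.47 (log2(TPM + 0.1)), 0.54 (log2(TPM + 1) over protein-coding genes), 0.056 (the GC trend removed) and 0.059 (replicate block and GC trend removed). RB1 turned to -0.012 (the GC trend removed) and -0.012 (replicate block and GC trend removed). SGCE turned to -0.021 (no filter), -0.13 (the GC trend removed), -0.06 (that trend and CTCF-dRBR replicate 1 removed) and -0.13 (replicate block and GC trend removed). SNHG14 turned to -0.079 (no filter), -0.12 (the GC trend removed), -0.083 (that trend and CTCF-dRBR replicate 1 removed) and -0.12 (replicate block and GC trend removed). SNURF turned to -0.16 (no filter), -0.23 (the GC trend removed), -0.11 (that trend and CTCF-dRBR replicate 1 removed) and -0.23 (replicate block and GC trend removed). TRAPPC9 turned to 0.13 (log2(TPM + 1)), 0.13 (log2(TPM + 0.1)) and 0.2 (log2(TPM + 1) over protein-coding genes). UHRF1 turned to 0.045 (library weights), 0.036 (log2(TPM + 1)) and 0.14 (CTCF-dRBR library 1 left out), within -0.28 to 0.14 over the 6 fits that leave out 1 library.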

Other observations

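Further rows of the 15q11-q13 transcript, chosen after their values were seen, are given as values. PWAR6, a noncoding RNA row within the long SNHG14 unit downstream of SNRPN, was at 23.7, 25.9 and 20.3 CPM in CTCF-WT and 37.5, 29.9 and 28.3 CPM in CTCF-dRBR. Its groups did not overlap, as for 20.0% of all tested genes in that direction, and its log2 fold change was 0.43 ± 0.158 (SE; limma-voom adjusted p = 0.177). The row named SNORD116-20, annotated as a long noncoding RNA, was at 104 ± 7.77 CPM in CTCF-WT, against 86.9 ± 29.1 CPM in CTCF-dRBR (SD, n = 3 each), a log2 fold change of -0.29 ± 0.252 (limma-voom adjusted p = 0.433).

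The small nucleolar RNA clusters of the same transcript differed in detection. The 25 SNORD116 rows summed to 4.16 to 4.61 CPM in CTCF-WT, against 3.43 to 6.61 CPM in CTCF-dRBR, and 5 of them had 0 counts throughout. Of 44 SNORD115 rows, 36 had 0 counts in all libraries, and their sum was above 0 only in CTCF-dRBR replicate 1, at 0.0294 CPM. SNORD116-17 and SNORD116-19 held identical values in every library, so reads of these near-identical copies cannot be told apart and each row is uncertain. Both were at 0.59 ± 0.171 CPM in CTCF-WT, against 1.09 ± 0.0982 CPM in CTCF-dRBR (SD, n = 3). They reached the minimum of 1 CPM only in CTCF-dRBR libraries, so no fold change or test is given.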
